A study of Mus musculus with 899 samples.

Results

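The miRNA described here are the mature products of the miR-199 family and of miR-214 in mouse plasma. They were chosen by name, as the rows mmu-miR-199a-5p, mmu-miR-199b-5p, mmu-miR-199a-3p, mmu-miR-199b-3p and mmu-miR-214-3p, which are 5 of the 1915 miRNA in the count table. Both 3p arms of miR-199 have the same sequence and were summed, so that the 5 rows gave 4 signals. All 4 signals were among the 482 miRNA abundant enough to be tested.

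Young adult gnotobiotic C3H (C3Hf/Sed/Kam) and C57Bl/6 mice of both sexes were sham irradiated or had the thorax exposed to a single dose of X-rays, chosen in each strain to be lethal to most mice by its endpoint. Circulating miRNA was sequenced to look for early signs of late injury to lung and heart. Plasma was taken before treatment, at day 2 or day 5, and at monthly intervals to month 4 in C3H and month 6 in C57Bl/6. The labels gave 899 samples of 196 mice, from 64 irradiated and 32 sham C3H mice and from 68 irradiated and 32 sham C57Bl/6 mice. Each strain came in 2 sets, named by a code in the sample titles (G2 and G4 in C3H, G1 and G3 in C57Bl/6), and beyond month 1 only G2 and G1 were sampled. The labels name no allele, transgene or further treatment in any group. Late samples come only from mice that lived long enough to give one, 17 of the irradiated C3H at month 4 and 8 of the irradiated C57Bl/6 at month 6.

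A miRNA is cut from a hairpin precursor, whose 2 arms can each give a mature strand, and the bases near the 5′ end of that strand, the seed, pair with target mRNA. miR-199a and miR-214 are known as miRNA of mesenchymal cells such as fibroblasts and smooth muscle, are made together from the long non-coding RNA Dnm3os, and have been studied in connection with fibrosis. miR-199 is also carried by platelets, so that in blood plasma its level does not point to 1 cell type.

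The mature strands are shown because the 3p arms of miR-199a and miR-199b cannot be told apart by sequencing, and because the 3 seeds among the shown strands differ. Sequences are from RefSeq (GRCm38.p6), written 5′ to 3′, with the seed (bases 2 to 8) in capitals, and 4 of the 5 rows matched an entry, all but mmu-miR-199b-5p. The seed of the first line is in no other line, the next pair shares another, and the last pair shares the seed of miR-214-3p.
mmu-miR-199a-5p: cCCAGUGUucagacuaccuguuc
mmu-miR-199a-3p: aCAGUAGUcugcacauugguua
mmu-miR-199b-3p: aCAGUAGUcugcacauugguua
mmu-miR-214-3p: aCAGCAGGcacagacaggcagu
mmu-miR-761: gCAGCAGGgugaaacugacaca

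The miRNA mmu-miR-761 is the only other entry of the sequence table that has the seed of one of these matched members, and it had 0 reads over all samples. In the GRCm38 annotation, miR-199a has 2 precursor genes. Mir199a-2 (chr1:162217814-162217923, plus strand) and Mir214 (chr1:162223368-162223477, plus strand) lie 5444 bases apart, each within an exon of Dnm3os and antisense to an intron of Dnm3, a dynamin gene. Mir199a-1 (chr9:21496495-21496564, minus strand) lies antisense to an intron of Dnm2, and Mir199b (chr2:32318460-32318569, plus strand) antisense to an intron of Dnm1, so that all 4 precursor genes sit opposite a dynamin gene. The table counts mature strands, and reads of miR-199a-5p cannot be assigned to 1 of its 2 genes.

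The 3p strand made up nearly all of the miR-199 reads. Its share of miR-199a and miR-199b reads before irradiation had a median of 97.6% in C3H samples (lowest 89.3%, highest 99.5%) and of 98.4% in C57Bl/6 samples (96.2% to 99.8%). The rows of miR-199a-3p and miR-199b-3p held a mean of 2929 and 2928 reads per sample, and the first row's share of their sum ran from 46.5% to 54.1%. The difference between the rows, divided by its counting error, had an SD of 1.03 over samples, which is the spread that a random division of the same reads gives. The pair is therefore called miR-199a/b-3p and counted as 1 signal.

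Levels are given as CPM, the counts per 1000000 reads of a library scaled by its TMM factor, and they set apart 1 abundant signal and 3 scarce ones. Over all samples, miR-199a/b-3p had a median of 2855 CPM (lowest 442.0, highest 10230) and ranked 39 of 482 by median. The median of miR-199a-5p was 43.3 CPM, that of miR-214-3p 27.9 CPM and that of miR-199b-5p 13.6 CPM. These correspond to medians of 64, 41 and 19 reads per sample, and 2, 11 and 39 samples had no read of them. The other arm of the miR-214 hairpin, miR-214-5p, had a median of 9.96 CPM and no read in 44 samples. The precision of the 3 scarce signals in a single sample is thus limited by counting. Plasma holds miRNA of many tissues, and fewer cells of a type cannot be told apart from less miRNA released per cell.

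**Figure D1:**
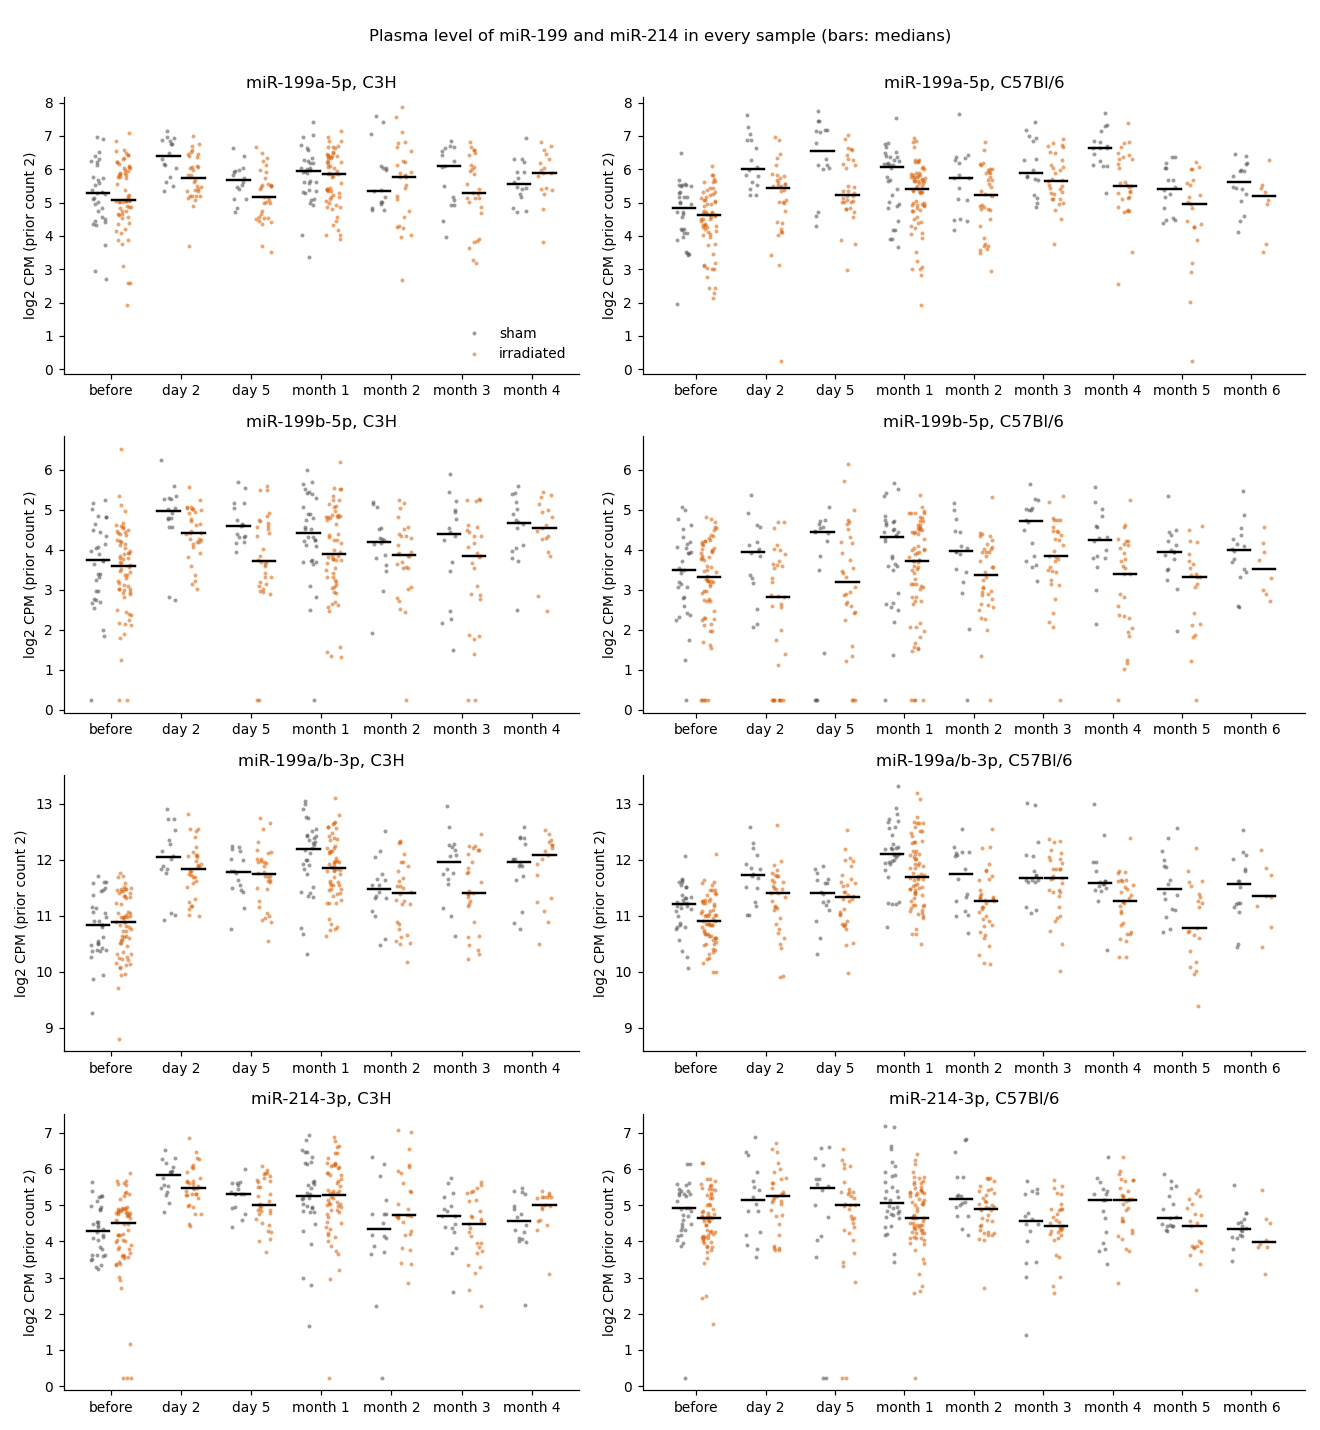
Level of each signal (log2 CPM, prior count 2) in every sample, by strain and time, with sham samples in grey and irradiated samples in orange and black bars at the medians. The groups overlap at every time, and for miR-199a-5p in C57Bl/6 the irradiated medians are below the sham medians at all 8 times after treatment, from 42.2 against 63.3 CPM at day 2 to 35.5 against 48.7 CPM at month 6.

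Sequencing depth ran from 206490 to 11814515 reads per sample (median 1475030), and 23 samples had under 500000 reads. Group medians lay between 855374 and 2882714 reads, lowest in sham C57Bl/6 at day 5 and highest in irradiated C3H at month 4. Within groups, the log2 level of miR-199a/b-3p had a correlation of 0.24 with log2 total reads over 899 samples, and that of miR-199a-5p one of 0.06. The TMM factor had a correlation of 0.34 with miR-214-3p. All 4 signals share these libraries, and the part of depth in the results below was not tested beyond the fits named there.

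Neighbours in the order of the group means lay close together beside the spread between single samples, while the ends of the order lay farther apart. For miR-199a-5p in C57Bl/6, the 18 groups ran from 4.44 (irradiated mice before irradiation) to 6.62 (sham, month 4) on the log2 CPM scale, with SDs within groups from 0.59 to 1.49. Neighbours in that order were at most 0.39 apart, less than the smallest SD. In C3H the same signal ran from 5.19 (irradiated mice before irradiation) to 6.35 (sham, day 2), and 1 of its 13 steps, of 0.54, was wider than the smallest SD of 0.53. The order of miR-199a/b-3p in C3H also had 1 such step, of 0.53, which set the samples before irradiation below all later ones. In C57Bl/6, miR-199a/b-3p ran from 10.89 (irradiated, month 5) to 12.11 (sham, month 1), with steps of at most 0.29 and SDs of 0.43 or more. For miR-199b-5p and miR-214-3p, no neighbouring groups were farther apart than the smallest SD in either strain.

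Levels in sham mice alone also differed between times. Values up to month 1 hold both sets of a strain and later ones 1 set, so that time and set cannot be told apart between them. In C3H sham mice the median of miR-199a-5p was 37.6 CPM before treatment, 83.2 CPM at day 2 and 45.6 CPM at month 4. In set G2, the only one sampled at month 4, the medians before treatment were 55.8 CPM in females and 63.3 CPM in males, sham and irradiated mice together. In C57Bl/6 sham mice it was 27.4 CPM before treatment, 63.3 CPM at day 2, 93.0 CPM at day 5, 66.5 CPM at month 1, 52.2 CPM at month 2, 58.2 CPM at month 3, 98.1 CPM at month 4, 41.4 CPM at month 5 and 48.7 CPM at month 6. Their mean log2 level was highest at day 2 (6.20), day 5 (6.39) and month 4 (6.62), which are the times at which miR-199a-5p is called below. The median of miR-199a/b-3p in sham mice rose from 1830 to 4670 CPM in C3H and from 2379 to 4393 CPM in C57Bl/6 between the first sample and month 1. These changes over time were not tested, and irradiated mice are therefore compared with sham mice of the same time.

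The mice assigned to irradiation and to sham were first compared before treatment, as a check of the groups. In C3H, 0 of 4 signals were called at an adjusted p below 0.05 by edgeR's quasi-likelihood test (background 0% of 482), with log2 differences from -0.06 to 0.08. In C57Bl/6, again 0 of 4 were called (background 0%), but all 4 were lower in the mice to be irradiated, by -0.20 to -0.23. The smallest adjusted p was 0.92, for miR-199a/b-3p, whose medians were 1921 CPM in 64 mice to be irradiated and 2379 CPM in 32 sham mice. In both strains, 0 of 4 had an unadjusted p below 0.05, and 0 of 4 were called by DESeq2 or limma-voom. The median difference over all 482 miRNA was -0.06 in C57Bl/6, against -0.23 for the 4 signals.

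The strains differed before treatment in miR-199a-5p and miR-214-3p, in opposite directions. Of the 4 signals, 2 were called, and the background was 49.4% of the 482 miRNA tested, so that this count is near that of all miRNA. In 96 C3H samples, miR-199a-5p ranged from 2.65 to 133.3 CPM with a median of 33.8 CPM. In 96 C57Bl/6 samples it ranged from 2.67 to 88.6 CPM with a median of 24.0 CPM. The ranges overlapped, and C57Bl/6 was lower by -0.71 ± 0.14 on the log2 scale (estimate ± SE, adjusted p = 2.01e-06), with 67 of 96 C57Bl/6 samples below the C3H median.

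For miR-214-3p the order was the other way. It ranged from 0 to 58.1 CPM in C3H (median 20.5) and from 0 to 71.0 CPM in C57Bl/6 (median 24.4), a log2 difference of 0.39 ± 0.14 (adjusted p = 0.00956). The value was 0.17 ± 0.08 (adjusted p = 0.0745) for miR-199a/b-3p and -0.32 ± 0.17 (adjusted p = 0.113) for miR-199b-5p, and neither was called.

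Levels also stood apart between the sets of a strain, a difference that was not tested. In C3H, miR-199a-5p had medians of 55.8 and 63.3 CPM in females and males of set G2 and of 33.0 and 22.5 CPM in those of set G4. The 3p signal went the other way. In C3H, miR-199a/b-3p had medians of 1247 CPM in females and 1543 CPM in males of set G2, but of 2409 and 2681 CPM in females and males of set G4. Set G2 ranged from 442.0 to 2118 CPM and set G4 from 1235 to 3476 CPM. In C57Bl/6 the 4 medians lay between 1755 and 2339 CPM. The strain difference of miR-199a/b-3p was accordingly 0.78 (adjusted p = 9.21e-11) between sets G1 and G2 and -0.30 (adjusted p = 0.0203) between sets G3 and G4. Only the difference of miR-199a-5p was called in the same direction in both of these pairs of sets (-0.82 and -0.49). That of miR-214-3p was 0.07 (adjusted p = 0.781) between G1 and G2 and 0.77 (adjusted p = 0.000206) between G3 and G4. The other pairing of the sets was not fitted. There, miR-199a-5p had medians of 29.7 CPM in females and 31.4 CPM in males of G1, against 33.0 and 22.5 CPM in G4. Males of that pair thus went the other way. Between G3 (22.8 and 15.5 CPM) and G2 (55.8 and 63.3 CPM), both sexes were lower in C57Bl/6. What the set code stands for is not given in the sources used here, so that a set and a strain cannot be told apart in any 1 of these pairs.

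**Figure D2:**
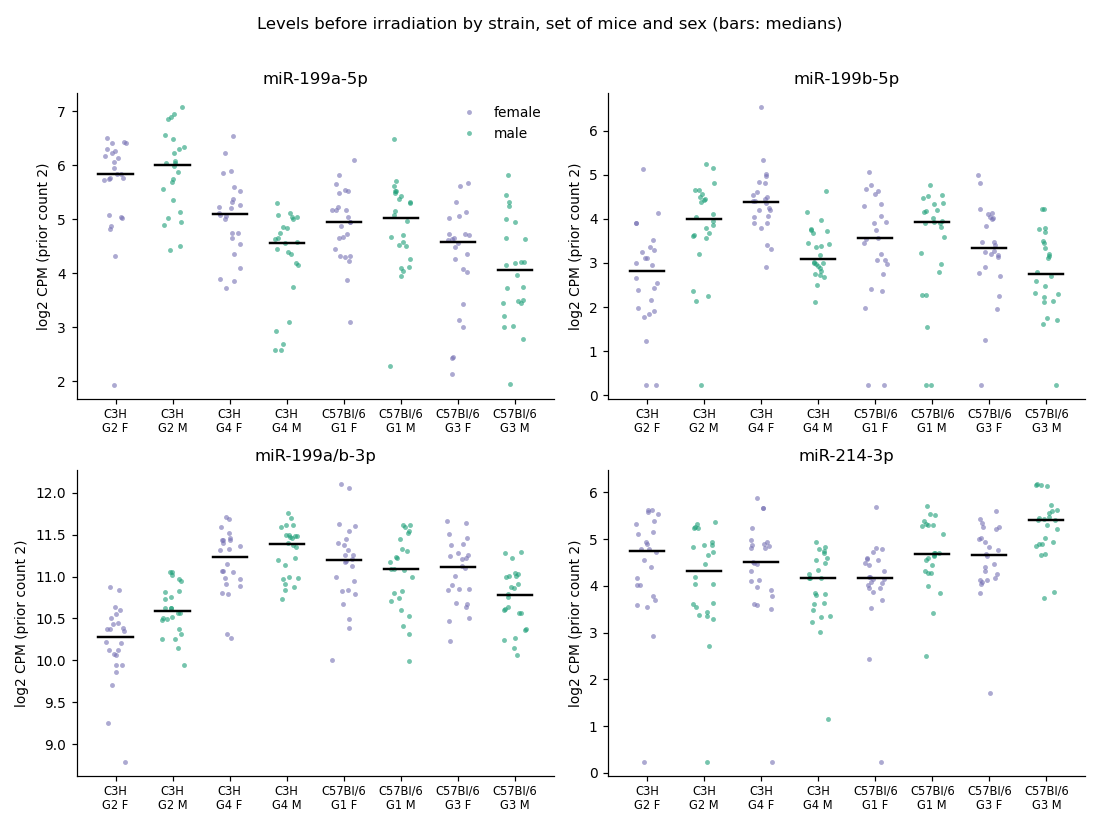
Levels before irradiation (log2 CPM, prior count 2) of the 4 signals in 8 subgroups of 24 mice, by strain, set and sex, with females in violet, males in green and black bars at the medians. The plot shows miR-199a/b-3p lowest in set G2 of C3H and miR-214-3p highest in males of set G3 of C57Bl/6, with a median of 41.3 CPM.

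Females and males also differed in miR-214-3p. The study used females of a higher age range than the males, so that sex and age cannot be told apart in any sex comparison here. In C57Bl/6, 48 females had 0 to 49.9 CPM (median 19.4) and 48 males 4.47 to 71.0 CPM (median 32.2), and females were lower by -0.65 ± 0.18 (adjusted p = 0.00483), with 41 of 48 below the male median. It was the only 1 of 4 signals called, where the background was 14.7%. In C3H, females had a median of 23.6 CPM and males of 16.9 CPM, a difference of 0.44 ± 0.18 in the other direction (adjusted p = 0.0851). There, 0 of 4 were called, 1 of 4 had an unadjusted p below 0.05, and the background was 14.9%.

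The sex differences themselves differed between the strains for 2 of 4 signals, against a background of 12.2%. This comparison was added after the values were seen. Female minus male was lower in C57Bl/6 than in C3H by -1.09 ± 0.26 for miR-214-3p (adjusted p = 0.000813). For miR-199a/b-3p it was higher by 0.47 ± 0.17 (adjusted p = 0.0432), from -0.22 in C3H and 0.25 in C57Bl/6, neither called alone. The direction of miR-214-3p held within each set, with lower female medians in G1 and G3 and higher female medians in G2 and G4. The other arm of the same hairpin, miR-214-5p, had medians of 6.78 CPM in C57Bl/6 females and 6.15 CPM in males, and no sex difference was called.

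After irradiation, miR-199a-5p was lower in C57Bl/6 mice than in sham mice of the same time. All 8 of its estimates after treatment were below 0, and 3 were called. The irradiated medians at these 3 times, 42.2 CPM at day 2, 36.6 CPM at day 5 and 43.6 CPM at month 4, were above the 23.4 CPM of the irradiated mice before treatment. Sham medians stood farther above their own first value of 27.4 CPM. Both first values pool 2 sets, while month 4 holds set G1 alone. In G1 the medians before treatment were 29.7 CPM in females and 31.4 CPM in males, sham and irradiated mice together. At day 2, 16 sham samples ranged from 35.9 to 197.9 CPM (median 63.3) and 32 irradiated samples from 0 to 124.9 CPM (median 42.2). The ranges overlapped, and 27 of 32 irradiated samples were below the sham median. The difference was -0.95 ± 0.27 (adjusted p = 0.013, edgeR), a ratio of 0.516, and miR-199a-5p was 1 of 4 signals called, with a background of 5.81%. With 4 signals, 1 call is the smallest count above 0.

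At day 5, in other mice of the same sets, the sham range was 18.6 to 211.3 CPM (median 93.0) and the irradiated range 6.74 to 129.4 CPM (median 36.6). Again 27 of 32 irradiated samples were below the sham median, and the difference was -1.03 ± 0.27 (adjusted p = 0.00161). This was 1 of 4 signals, where 14.7% of all miRNA were called. At month 4, 16 sham samples had 38.2 to 205.9 CPM (median 98.1) and 29 irradiated samples 4.65 to 165.5 CPM (median 43.6), and 25 of 29 irradiated samples lay below the sham median. The difference was -0.91 ± 0.27 (adjusted p = 0.0216), with 1 of 4 signals called and a background of 4.77%.

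At the other times the estimates of miR-199a-5p were smaller and were not called. They were -0.48 ± 0.19 at month 1, -0.54 ± 0.26 at month 2, -0.43 ± 0.27 at month 3, -0.51 ± 0.29 at month 5 and -0.48 ± 0.39 at month 6, with adjusted p from 0.131 to 0.744. At month 1, 59 of 68 irradiated samples were below the sham median of 66.5 CPM. Set G1 gave -1.02 (adjusted p = 0.00801) at that time and set G3 gave 0.05 (adjusted p = 0.969), a difference between sets that was not tested.

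The values of miR-199a-5p within sets were on the same side of 0 at the early times. Day 2 gave -0.69 in set G1 (adjusted p = 0.296) and -1.09 in set G3 (adjusted p = 0.15). Day 5 gave -0.78 in G1 (adjusted p = 0.21) and -1.17 in G3 (adjusted p = 0.0165). Females alone gave -1.28 at day 2 (adjusted p = 0.00743) and males alone -0.71 (adjusted p = 0.657). Only set G1 was sampled at month 4, so that leaving out a sex there leaves the other. Without the females of set G3, day 2 was -0.79 (adjusted p = 0.132), and without the females or the males of set G1, month 4 was -1.13 (adjusted p = 0.0674) or -0.79 (adjusted p = 0.374).

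**Figure D3:**
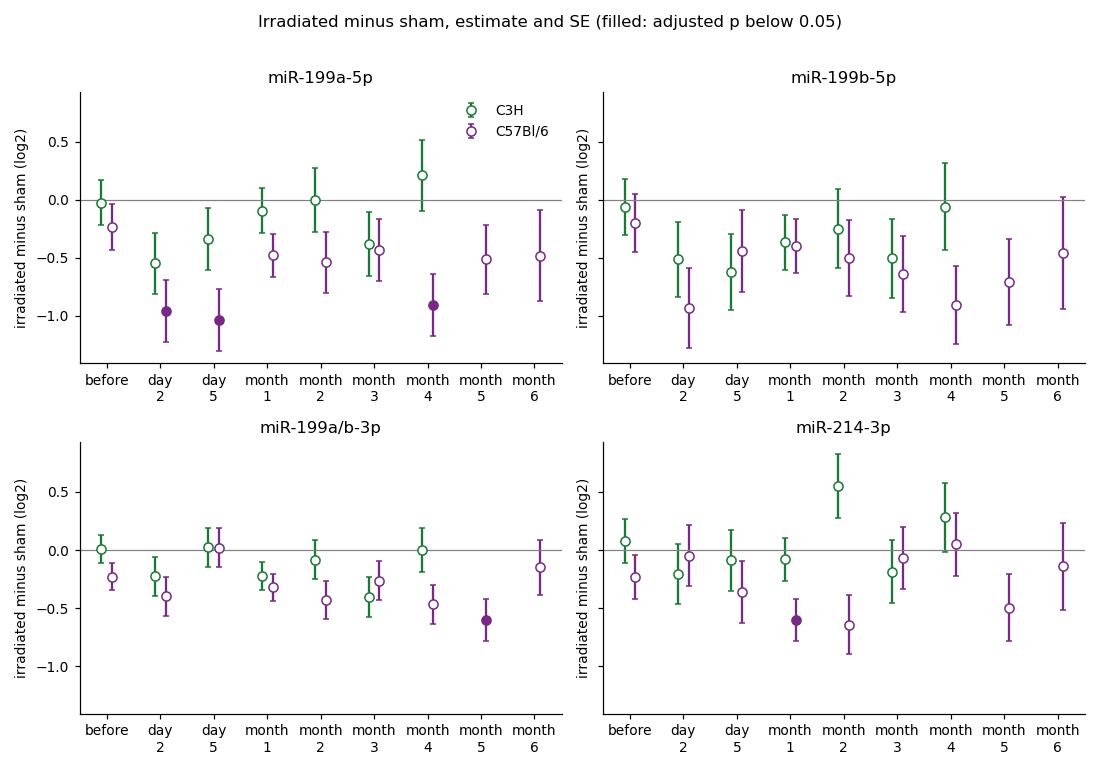
Irradiated minus sham (log2, estimate with SE as bars) at each time for the 4 signals, in C3H (green) and C57Bl/6 (purple), with filled symbols where the adjusted p is below 0.05. The 5 filled symbols are all in C57Bl/6 and below 0, between -0.60 and -1.03, and the symbols for C3H are open at every time.

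The other signals were called at 1 time each or not at all. At month 1 in C57Bl/6, miR-214-3p ranged from 9.66 to 143.8 CPM in 32 sham samples (median 32.0) and from 0 to 83.5 CPM in 68 irradiated samples (median 24.0). The groups overlapped widely, with 42 of 68 irradiated samples below the sham median, and the difference was -0.60 ± 0.18 (adjusted p = 0.0282). It was 1 of 4 called, against 3.53% of all miRNA. The call was lost without the 4 mice that have no sample before irradiation (-0.55, adjusted p = 0.0731) and with limma-voom (-0.52, adjusted p = 0.124), where the values stayed near the reported one. It was also lost without the females of set G1, where the value was -0.36 (adjusted p = 0.751).

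At month 5, miR-199a/b-3p ranged from 1659 to 6060 CPM in 16 sham samples (median 2869) and from 670.3 to 4729 CPM in 21 irradiated samples (median 1763). Of the irradiated samples, 16 of 21 were below the sham median, and the difference was -0.60 ± 0.18 (adjusted p = 0.0316), again 1 of 4 where the background was 3.32%. With DESeq2's size factors it was -0.55 (adjusted p = 0.0605), and without the mice that lack a first sample -0.53 (adjusted p = 0.123), neither called. Leaving out the females of set G1 gave -0.42 (adjusted p = 0.788).

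The 5p strand of miR-199b had 8 of 8 estimates below 0 in C57Bl/6, from -0.40 to -0.93, and 0 were called. At day 2 its median was 14.2 CPM in sham mice and 5.87 CPM in irradiated mice, of which 8 of 32 had no read, against 0 of 16 sham mice. The irradiated samples were shallower, with a median of 859418 reads against 1300997 in sham mice. The adjusted p at day 2 was 0.089 by edgeR and 0.0222 with quantile normalization and limma, and at month 4 it was 0.0905 and 0.0309. For miR-199a/b-3p, 7 of 8 estimates in C57Bl/6 were below 0, and for miR-214-3p also 7 of 8, and the single estimates above 0 were 0.02 at day 5 and 0.05 at month 4. At month 2, month 3 and month 6, 0 of 4 signals were called in C57Bl/6, where the backgrounds were 3.32%, 1.66% and 0.415%, and DESeq2 and limma-voom also called 0. Of the 32 estimates in this strain, 30 were below 0, 14 had an unadjusted p below 0.05 and 5 were called. Of all 482 miRNA, between 49 (month 6) and 124 (day 5) had an unadjusted p below 0.05 at these times. The sham groups, and mice across times, are shared by these estimates, so that they are not independent of each other.

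The median of the 4 estimates in C57Bl/6 lay between -0.30 (month 6) and -0.69 (month 4), while that of all 482 miRNA lay between -0.02 and -0.11. Over these times, 51.7% (month 4) to 60.2% (month 6) of all miRNA were below 0. Before irradiation the same median was already -0.23. In set G1, the only one sampled beyond month 1, the values before irradiation were -0.42 for miR-199a-5p and -0.36 for miR-199b-5p. They were -0.27 for miR-214-3p and -0.28 for miR-199a/b-3p. Set G3 gave 0.13, 0.10, -0.16 and -0.12 in the same order, and no value was called in either set. When each mouse served as its own control (a fixed replicate block for the mouse, limma-voom), 0 of 4 signals were called at any time. The 5 called values then were -0.90 at day 2, -0.73 at day 5 and -0.57 at month 4 for miR-199a-5p, -0.38 for miR-214-3p at month 1 and -0.31 for miR-199a/b-3p at month 5, with adjusted p from 0.183 to 0.787. With an estimated correlation within mice in place of the fixed block, the calls of day 2, day 5, month 4 and month 5 held and that of month 1 did not (adjusted p = 0.121), and miR-199b-5p was called as well at day 2 (adjusted p = 0.0348) and month 4 (adjusted p = 0.0346). The fit by limma-voom with no block gave the same number of calls at each of these times.

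Over all alternatives, the call of miR-199a-5p held in 18 of 23 at day 2, in 19 of 23 at day 5 and in 17 of 22 at month 4. That of miR-214-3p at month 1 held in 10 of 23, and that of miR-199a/b-3p at month 5 in 13 of 23 values, since 1 alternative gave 2 of them.

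**Figure D4:**
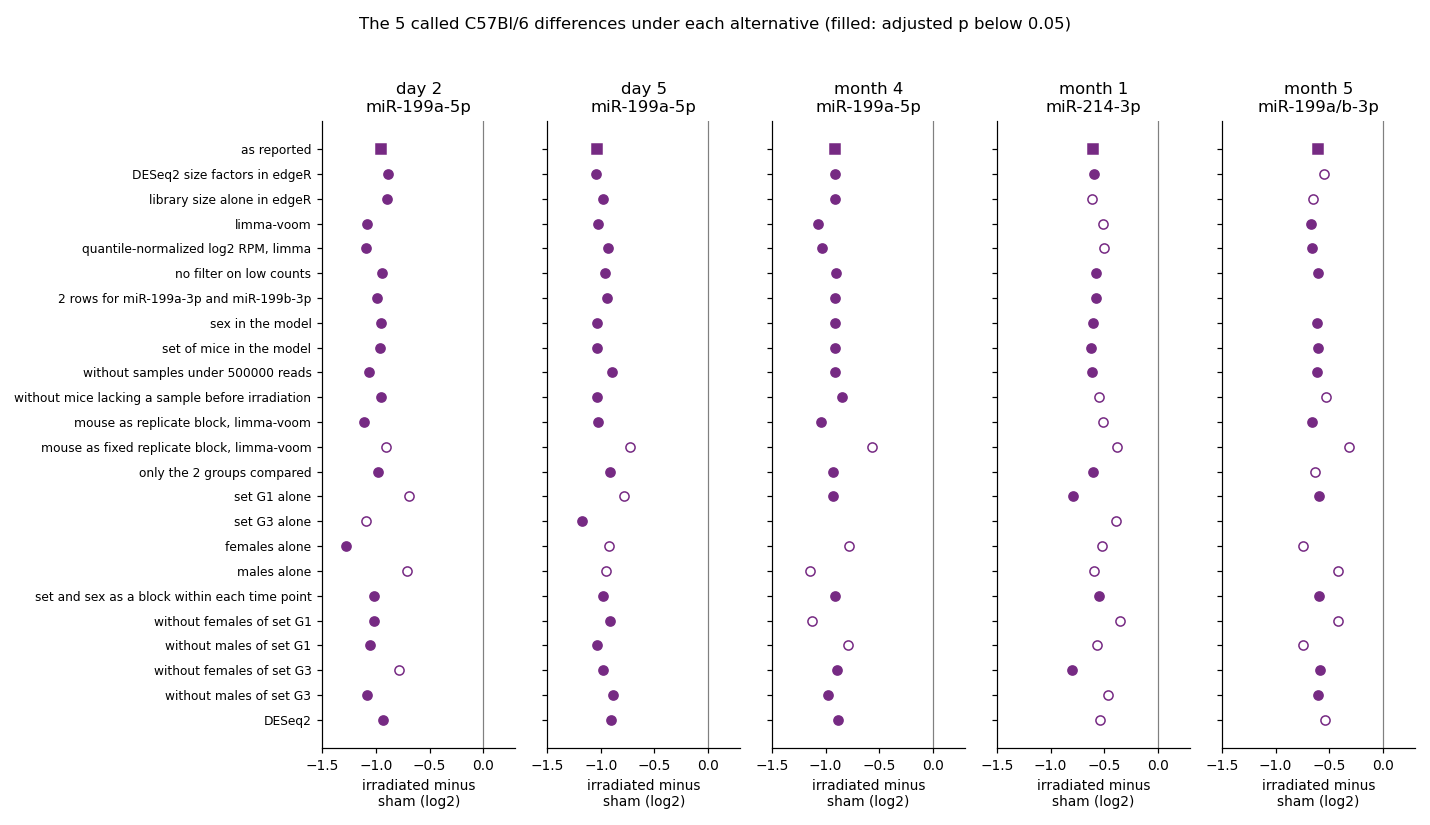
The 5 called differences in C57Bl/6 (log2, irradiated minus sham) under each alternative, with the reported fit as a square and filled symbols where the adjusted p is below 0.05. All values lie below 0, and the symbols of the fixed replicate block for the mouse are open in all 5 panels. A fit that keeps both 3p rows gives 2 values at month 5, which are not drawn.

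In C3H, 0 of 24 estimates were called at any time. The estimates of miR-199a-5p were -0.55 ± 0.26 at day 2, -0.34 ± 0.27 at day 5, -0.09 ± 0.19 at month 1, -0.00 ± 0.28 at month 2, -0.38 ± 0.28 at month 3 and 0.21 ± 0.31 at month 4. At day 2, 16 sham samples had 39.6 to 140.4 CPM (median 83.2) and 32 irradiated samples 11.8 to 127.7 CPM (median 52.4), and 25 of 32 were below the sham median (adjusted p = 0.264). For miR-214-3p at month 1 the value was -0.08 ± 0.19. Of the 24 estimates, 19 were below 0 and 3 had an unadjusted p below 0.05, and DESeq2 and limma-voom called 0 as well. Those 3 went in both directions. They were miR-199a-5p at day 2 and miR-199a/b-3p at month 3, both lower, and miR-214-3p at month 2. The last was higher by 0.55 ± 0.27 (adjusted p = 0.675, edgeR). Of all 482 miRNA, between 33 (month 4) and 81 (day 2) had an unadjusted p below 0.05. The background in C3H was 4.77% at day 2, 3.32% at day 5, 3.32% at month 1, 0.83% at month 2, 1.87% at month 3 and 0.415% at month 4.

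Calls in C57Bl/6 and none in C3H do not show that the strains respond differently, and the difference itself was tested over the 6 shared times. The F test called 0 of 4 signals, against a background of 4.15%. The adjusted p was 0.213 for miR-199a-5p, 0.253 for miR-214-3p, 0.79 for miR-199a/b-3p and 0.949 for miR-199b-5p, and 2 of 4 had an unadjusted p below 0.05. No difference in response between the strains was therefore shown for any of the signals.

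Female and male mice were compared for their response in the same way, over day 2, day 5 and month 1. In C3H 0 of 4 signals were called (background 0.415%), and in C57Bl/6 0 of 4 (background 6.02%). The smallest unadjusted p among these 8 tests was 0.41, for miR-214-3p in C57Bl/6, and limma-voom also called 0. Later times were not part of this test. At month 2 in C57Bl/6, females alone and males alone gave -1.24 and -0.02 for miR-199a-5p and -1.15 and 0.03 for miR-214-3p. The values were -0.27 and -0.76 for miR-199b-5p and -0.55 and -0.36 for miR-199a/b-3p. Whether the sexes differed at that time was not tested.

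Irradiated mice that were still sampled at the last time were compared with those that were not, in the sets followed beyond month 1. A missing last sample can stand for death, hemolysis or a rejected library. In C3H, 17 mice had a sample at month 4 and 15 did not, and in C57Bl/6, 8 had one at month 6 and 24 did not. At day 2, miR-199a-5p had 33.6 to 127.7 CPM (median 73.6) in 10 C3H mice with a later sample and 49.8 to 107.7 CPM (median 75.2) in 6 without. In C57Bl/6 it had 43.9 to 79.4 CPM in 4 mice with and 0 to 116.7 CPM in 12 mice without, with medians of 49.9 and 37.7 CPM. The ranges overlapped at both days for all 4 signals, and 0 of 4 were called in C3H (background 0%) and in C57Bl/6 (background 0%), with 0 unadjusted p below 0.05 and 0 calls by limma-voom. The differences, with minus lacking a later sample, lay between -0.24 and 0.11 in C3H and between -0.09 and 0.37 in C57Bl/6, with SEs from 0.17 to 0.34 and from 0.19 to 0.76.

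The signals varied together within groups to a moderate degree. After group means were removed, the correlation over 899 samples was 0.55 between miR-199b-5p and miR-199a/b-3p, 0.50 between miR-199a-5p and miR-199a/b-3p, and 0.47 between both 5p strands. With miR-214-3p, made from the same transcript as Mir199a-2, it was 0.37 for miR-199a-5p, 0.35 for miR-199a/b-3p and 0.28 for miR-199b-5p, and both arms of miR-214 had 0.39. Counting error in the scarce signals lowers such values, and samples of the same mouse recur among the points. Within mice, the estimated correlation was 0.139 for miR-199a/b-3p, 0.106 for miR-214-3p, 0.0713 for miR-199b-5p and 0.0613 for miR-199a-5p, so that a mouse's level at 1 time said little about its level at another.

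The miRNA most like the members were named by the 5 largest correlations over the same samples. For miR-199a/b-3p they were miR-125b-5p (0.81), miR-434-3p (0.61), miR-381-3p (0.61), miR-152-3p (0.60) and miR-434-5p (0.60). For miR-199a-5p they were miR-23b-3p (0.63), miR-195a-5p (0.59), miR-125b-5p (0.54), miR-136-5p (0.52) and miR-30c-5p (0.46). For miR-199b-5p they were miR-125b-5p (0.57), miR-34c-5p (0.44), miR-146b-5p (0.43), miR-411-5p (0.40) and miR-136-5p (0.39). For miR-214-3p they were miR-22-3p (0.47), miR-30b-5p (0.45), miR-145a-5p (0.41), miR-377-3p (0.41) and miR-434-3p (0.40). The miRNA miR-125b-5p appears beside each of the miR-199 strands and not beside miR-214-3p.

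Some of these 16 miRNA differed from sham mice in C57Bl/6 at the times when a member was called, in both directions. Those that fell or rose were lower or higher than in sham mice of the same time. At day 2, 2 fell and 0 rose (background 5.81% of all 482), and at day 5, 3 fell and 2 rose (background 14.7%). At month 1, 2 fell and 0 rose (background 3.53%), and at month 4, 3 fell and 1 rose (background 4.77%). At month 5, 0 were called (background 3.32%). The risers were miR-22-3p, by 0.42 ± 0.15 at day 5 (adjusted p = 0.0321) and 0.50 ± 0.15 at month 4 (adjusted p = 0.023), and miR-152-3p, by 0.43 ± 0.16 at day 5 (adjusted p = 0.0498). The level of miR-125b-5p was lower by -0.64 ± 0.16 at day 2 (adjusted p = 0.00342), -0.41 ± 0.11 at month 1 (adjusted p = 0.0111) and -0.51 ± 0.17 at month 4 (adjusted p = 0.0454), and at day 5 the value was -0.13 ± 0.16 (adjusted p = 0.665). That of miR-195a-5p was lower by -0.60 ± 0.15 at day 5 (adjusted p = 0.00142), -0.35 ± 0.11 at month 1 (adjusted p = 0.0289) and -0.49 ± 0.16 at month 4 (adjusted p = 0.0351). That of miR-23b-3p was lower by -0.73 ± 0.15 at day 5 (adjusted p = 5.24e-05) and -0.59 ± 0.15 at month 4 (adjusted p = 0.00512).

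A list of 18 other miRNA of stromal and smooth muscle cells, 16 of them tested, had calls in both directions at day 5 and only falls at the other times with a called member. At day 2 in C57Bl/6, 2 of 16 fell and 0 rose (background 5.81% of all 482), miR-125b-5p and miR-100-5p (-1.23 ± 0.35, adjusted p = 0.0175), from the clusters that join miR-99 or miR-100 with miR-125. At day 5, 2 fell and 4 rose (background 14.7%). The risers included miR-29c-3p (0.91 ± 0.16, adjusted p = 8.95e-07) and miR-29a-3p (0.52 ± 0.12, adjusted p = 0.000182), of a family that targets collagen mRNA, while miR-29b-3p of the same family had -0.91 ± 0.27 (adjusted p = 0.00762). At month 1 (background 3.53%) and at month 4 (background 4.77%), 2 of 16 fell and 0 rose, miR-125b-5p and miR-195a-5p each time, and at month 5 (background 3.32%) 1 of 16, miR-99a-5p (-0.996 ± 0.278, adjusted p = 0.0146). The median of the list was -0.25 at day 2, -0.02 at day 5, -0.19 at month 1, -0.34 at month 4 and -0.33 at month 5. Its summed level ranged from 58020 to 139300 CPM in irradiated and from 72890 to 185400 CPM in sham mice at day 2. At day 5 the ranges were 51780 to 179100 CPM and 56670 to 110200 CPM. The median of irradiated mice was the higher one at day 5 (91700 against 81810 CPM). It was the lower one at day 2, month 1, month 4 and month 5.

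Markers of other cells moved at the same times, and their part in the results for miR-199 and miR-214 was not tested. Their counts stand beside the same backgrounds in C57Bl/6, 5.81% at day 2, 14.7% at day 5, 3.53% at month 1, 4.77% at month 4 and 3.32% at month 5. In C57Bl/6 at day 2, leukocyte miRNA were lower in 2 of 8 (miR-150-5p, of lymphocytes, by -1.52 ± 0.14, and miR-155-5p by -1.11 ± 0.19), and at day 5 in 4 of 8. In C3H, where no member was called, 4 of 8 were lower at day 2 (background 4.77%) and at day 5 (background 3.32%). The summed level of the leukocyte list in C57Bl/6 was 11980 to 24510 CPM in irradiated and 18720 to 32110 CPM in sham mice at day 2. At month 4 in C57Bl/6 it was 19750 to 46450 CPM against 20020 to 38880 CPM, with 0 of 8 called. Liver miRNA moved in both directions early, with 2 of 4 higher and 1 lower at day 2 and 1 of each at day 5, and were higher late, in 3 of 4 at month 4 and 4 of 4 at month 5. The liver marker miR-122-5p was among them at both times and was higher by 3.25 ± 0.39 at month 5, and the summed level of the list at month 4 ran from 4310 to 147400 CPM in irradiated mice and from 3010 to 11640 CPM in sham mice.

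Platelets carry miR-199, and their part was likewise not tested. Of 8 platelet and endothelial miRNA, 1 was higher at day 2 (miR-24-3p) and 1 at month 4 (miR-22-3p), 2 were higher and 2 lower at day 5 (among the lower ones miR-223-3p, which is on the leukocyte list as well), and 0 were called at month 1 and month 5. Its summed level at month 4 was 55020 to 94290 CPM in irradiated and 59510 to 87910 CPM in sham mice. Of 6 red blood cell miRNA, 1 was higher at day 5 (miR-144-5p) and 0 were called at the other times with a called member. Of 6 muscle miRNA, only miR-208a-3p was called at these times, higher at day 5 and at month 4. The median difference of the muscle list was 0.22 at day 5 and -0.60 at month 4. The median of its summed level at month 4 was 3750 CPM in irradiated and 8290 CPM in sham mice. The defining markers of these lists, such as miR-126a-3p, miR-451a, miR-150-5p, miR-122-5p and miR-1a-3p, were at 0 in no sample.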

How the data were processed

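Plasma miRNA of 899 samples from 196 mice was analysed. The authors excluded hemolyzed plasma and runs with few reads, used Illumina BaseSpace for trimming and for alignment to mouse miRNA (mm10), and deposited whole-number counts per mature miRNA, without normalization. Whether molecular identifiers were used is not given in the sources used here, so that the counts are of reads. Groups came from the labels.

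The rows of miR-199a-3p and miR-199b-3p were summed. In R 4.3.3, 482 miRNA passed edgeR's filterByExpr (edgeR 4.0.16) and held 99.99% of all reads. TMM factors ranged from 0.348 to 1.71. The quasi-likelihood test used 1 coefficient per group (32 groups, all samples together, 867 residual degrees of freedom), and p-values were adjusted by Benjamini-Hochberg within a comparison over all 482 miRNA, with calls at 0.05. A model with sex in the groups gave the sex comparisons. Alternatives used limma 3.58.1, DESeq2 1.42.0, other scalings and filters, covariates, each set or sex alone, and the mouse as a replicate block. Samples of a mouse at different times carry the same number in the labels, which pairs them, and their consensus correlation was 0.0411. The procedure was tested on simulated data.

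The miRNA named were the members, miRNA sharing a seed with a member, the other arm of miR-214, the 5 most correlated miRNA per signal and, per marker list, at most 3 of those called. The members and lists were chosen with earlier results of these data known. No comparison values from the study were used, and its lung and heart data and survival times were not analysed here.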

Additional observations from a re-analysis of the deposited data

Results flagged for a closer look

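The sex difference before irradiation differed between the strains for 2 signals. For miR-214-3p, the test of that difference gave an adjusted p of 0.000813 (edgeR), with females lower than males in C57Bl/6 (medians of 19.4 and 32.2 CPM) and higher in C3H (23.6 and 16.9 CPM). For miR-199a/b-3p the adjusted p was 0.0432, with female medians of 2306 CPM against 1897 CPM in C57Bl/6 and of 1680 CPM against 1990 CPM in C3H. The comparison was added after the values were seen, and the females were of a higher age range than the males. Under 3 alternatives the difference ranged from -1.15 to -1.10 for miR-214-3p and from 0.46 to 0.54 for miR-199a/b-3p, and both were called each time.

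One group was small enough to be searched for single samples far from the rest, the 8 irradiated C57Bl/6 mice at month 6, and 0 of its 4 signals held such a sample.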

How the results depend on the processing

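Depth limits the 3 scarce signals, with medians of 64 reads or fewer per sample. Each strain has its own sets, so that a strain difference cannot be told apart from a difference between sets. In 366 of 421 comparisons of a count of called signals with its alternative, the count stayed the same or within 1.5 times. Of 1702 single estimates under alternatives, 1516 kept direction and call, 38 lost a call, 29 gained one and 119 changed sign, of which none had been called. The causes of these changes were not tested. With the mouse as a fixed replicate block, 0 of 4 signals were called at day 2, day 5, month 1, month 4 and month 5 in C57Bl/6, where 1 had been, and with the mouse as a replicate block of estimated correlation 2, 1, 0, 2 and 1 were called, the same numbers as with limma-voom and no block. Between the strains before irradiation, miR-199a/b-3p was called with limma-voom both without that block (adjusted p = 0.0335) and with it (adjusted p = 0.0336). No other call of a member changed with the mouse as a block.

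In C57Bl/6 at day 2, 2 signals were called with limma-voom, with quantile-normalized log2 RPM and with set and sex as a block (added after seeing the data), and 0 in set G1 alone, set G3 alone, males alone and without the females of set G3. At day 5, 0 were called in set G1 alone, females alone and males alone. At month 1, 0 were called with library size alone, limma-voom, quantile-normalized log2 RPM, DESeq2, set G3 alone, females alone, males alone, without the mice that lack a first sample, and without the females of G1, the males of G1 or the males of G3. At that time 3 were called in set G1 alone and without the females of G3, and 2 with set and sex as a block. At month 2, where 0 had been called, 1 was called in set G1 alone and 2 in females alone and without the males of G1. At month 4, 2 were called with limma-voom, quantile-normalized log2 RPM, the 2 groups alone, set G1 alone and without the males of G3, 3 with set and sex as a block, and 0 in females alone, males alone and without the females or the males of G1. At month 5, 0 were called with DESeq2's size factors, library size alone, DESeq2, the 2 groups alone, females alone, males alone, without the mice that lack a first sample, and without the females or the males of G1. Before irradiation, 4 signals in place of 2 differed between the strains in sets G3 and G4 alone.

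Estimates near 0 changed sign. For miR-199a-5p in C3H, month 1 became 0.0756 in set G4 alone, and month 2 became 0.0602 with DESeq2's size factors, 0.16 with library size alone, 0.0391 without a filter, 0.033 with DESeq2, 0.00166 without the males of G2 and 0.0266 without the males of G4. In C57Bl/6 it became 0.0522 in set G3 alone at month 1, 0.0426 without the females of G1 at month 2 and 0.15 with the fixed replicate block at month 3. For miR-214-3p in C3H, month 1 became 0.0463 in males alone. The strain difference became 0.16 for miR-199b-5p in sets G1 and G2 alone and -0.30 for miR-199a/b-3p in sets G3 and G4 alone. Library size alone moved the median difference of all miRNA by -0.17 at day 2 in C3H, by 0.11 at day 2 in C57Bl/6 and by -0.10 at day 5 in C3H, and quantile normalization by 0.13 at month 6 in C57Bl/6.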
